A study of Mus musculus with 30 samples.

Results

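The endocannabinoid receptor and enzyme genes comprise Cnr1, Dagla, Daglb, Mgll, Abhd6, Napepld and Faah and were taken from the table by symbol. Each symbol was matched to a single Ensembl ID, giving 7 of the 17477 genes in the deposited count table. They were followed in the hippocampus of adult C57 BL/6J mice, an inbred strain, which from weaning onwards lived either alone (social isolation, SI) or in shared cages (group-housed, GH). RNA-seq was carried out on 8 SI and 7 GH females (animals numbered 41 to 79) and on 7 SI and 8 GH males (animals numbered 1 to 39), with 1 poly(A)-selected library per mouse, and the labels name no other treatment or allele in any group. The comparison of SI with GH within each sex asks whether isolation after weaning altered gene expression in this region. The labels do not tell which GH mice shared a cage. The tests below therefore treat each mouse as independent, and differences between cages were not tested.

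Endocannabinoids are lipid messengers that are made on demand in the postsynaptic neuron and travel backwards across the synapse to the CB1 receptor, encoded by Cnr1, where they reduce transmitter release. The messenger 2-arachidonoylglycerol (2-AG) is made by the diacylglycerol lipases Dagla and Daglb and is broken down mainly by monoacylglycerol lipase, encoded by Mgll, with a smaller part for Abhd6. Anandamide can be made through the phospholipase D encoded by Napepld and is broken down by fatty acid amide hydrolase, encoded by Faah. In the hippocampus CB1 is densest on the axon terminals of inhibitory interneurons that contain cholecystokinin and is present at lower density on glutamatergic terminals, where 2-AG shapes short-term and long-term plasticity.

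Each gene passed the filter on low counts in both sexes, with between 300 counts (Napepld) and 22300 counts (Mgll) in a library. Levels between genes were compared as CPM (counts scaled to library size by TMM) per kilobase of the longest protein-coding transcript. Mgll was highest with a median of 72.7 CPM per kilobase over the 30 mice (range 53.5 to 151), followed by Faah at 34.8 (27.6 to 41.3), Abhd6 at 28.1 (24.999 to 34.5), Dagla at 25.2 (9.20 to 35.9), Cnr1 at 20.7 (13.0 to 29.1), Daglb at 10.9 (8.64 to 12.8) and Napepld at 5.83 (4.05 to 7.12). This places Mgll above 93.9% and Napepld above 48.4% of the 15265 genes that had a known transcript length and passed the low-count filter over all mice. Mgll exceeded Faah in 30 of 30 mice, Cnr1 exceeded Daglb in 30 and Daglb exceeded Napepld in 30. The order in the middle was less fixed, since Faah exceeded Abhd6 in 28 of 30 mice, Abhd6 exceeded Dagla in 23 and Dagla exceeded Cnr1 in 26. Of the paired enzymes, the anandamide hydrolase was thus well above the anandamide-producing phospholipase, and the main 2-AG hydrolase well above both lipases that make 2-AG.

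On NCBIM37 (GENCODE vM1), Cnr1 (ENSMUSG00000044288) lies on chromosome 4 from 34011568 to 34035806 and Faah (ENSMUSG00000034171) on chromosome 4 from 115639750 to 115690531. Dagla (ENSMUSG00000035735) lies on chromosome 19 from 10319755 to 10379367, and Daglb (ENSMUSG00000039206) on chromosome 5 from 144225361 to 144265310. Mgll (ENSMUSG00000033174) lies on chromosome 6 from 88674406 to 88778354, Abhd6 (ENSMUSG00000025277) on chromosome 14 from 8835416 to 8889069, and Napepld (ENSMUSG00000044968) on chromosome 5 from 21168719 to 21207214. All are protein-coding, and Mgll and Napepld each overlap 1 annotated gene on the opposite strand, which has no row in the table. Counts cover whole genes, so they are not split by exon or isoform.

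Total counts per library ranged from 18809307 to 100844898. SI males 25, 33 and 39 stood apart from the other 12 males, lying between 63.5 and 103 on the first principal component against -37.5 to 0.73, and the 3 are given with and without the rest below. In these 3 libraries longer transcripts had relatively fewer counts, with a slope of -0.43 to -0.32 log2 CPM per doubling of transcript length, against -0.04 to 0.22 in the other males and -0.17 to 0.12 in females. The mean slope in SI minus that in GH was -0.01 in females (two-sided p = 0.839 by an exact permutation test of all 6435 splits) and -0.21 in males (same exact test, p = 0.0699). Markers of excitatory neurons, dentate granule cells, CA1 and CA3 (5, 5, 4 and 4 genes) had counts in each group. So did the 5 thalamus and 6 striatum markers, so having counts does not test the label hippocampus. The summed level of 7 choroid plexus markers varied from 40.3 to 4893 CPM between libraries, and that of 7 astrocyte markers was 3615 to 4894 CPM in SI females against 4209 to 5881 in GH females. In whole tissue, fewer cells of a type and less RNA per cell cannot be told apart.

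In females, none of the endocannabinoid genes was a differentially expressed gene (DEG) between SI and GH. Abhd6, a minor 2-AG hydrolase, came closest with a level 1.09-fold that of GH females, and Mgll, the main 2-AG hydrolase, had the opposite sign at 0.902-fold. Napepld and Faah, which make and break down anandamide, were at 1.09-fold and 1.08-fold, while the receptor gene Cnr1 was at 1.01-fold with a 95% interval of 0.929 to 1.09. DEGs were called at an adjusted p under 0.05 by the quasi-likelihood F-test of edgeR, Benjamini-Hochberg adjusted over all genes, with 3 surrogate variables (estimates of unwanted variation) in the model. By this rule 0 of the 7 were called, where 624 of all 16026 genes tested (3.89%) were. At an unadjusted p under 0.05 there were 4 of the 7, 3 higher and 1 lower in SI, where 20.2% of all genes passed (9.29% higher and 11.0% lower). DESeq2 with the same surrogate variables called 1 of the 7, Abhd6, while DESeq2 without them and limma-voom called 0. The fitted Log2FC, the difference of SI from GH on the log2 scale, was above 0 for 6 of the 7, where it was for 52.8% of all genes, and its median was 0.09 against 0.01 over all genes.

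In males, 0 of the 7 genes were called by the same edgeR test with 2 surrogate variables, and 0 passed an unadjusted p of 0.05. Over all 15833 genes tested in males 0 were called (0%), and 13.0% passed an unadjusted p of 0.05 (5.63% higher and 7.38% lower). DESeq2 with or without surrogate variables and limma-voom also called 0 of the 7, while DESeq2 called 44 of all genes with surrogate variables and 304 without. The fitted Log2FC lay between -0.10 (Cnr1) and 0.04 (Faah), with adjusted p-values from 0.638 to 0.970 by edgeR with Benjamini-Hochberg adjustment. The levels themselves had a higher SD in SI males than in the other groups for each of the 7 genes, and SI males 25, 33 and 39 had far less Dagla and far more Mgll than the rest. All 3 are SI mice, so in them an effect of isolation and what sets their libraries apart cannot be told apart. Surrogate variables may take up part of either.

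**Figure D1:**
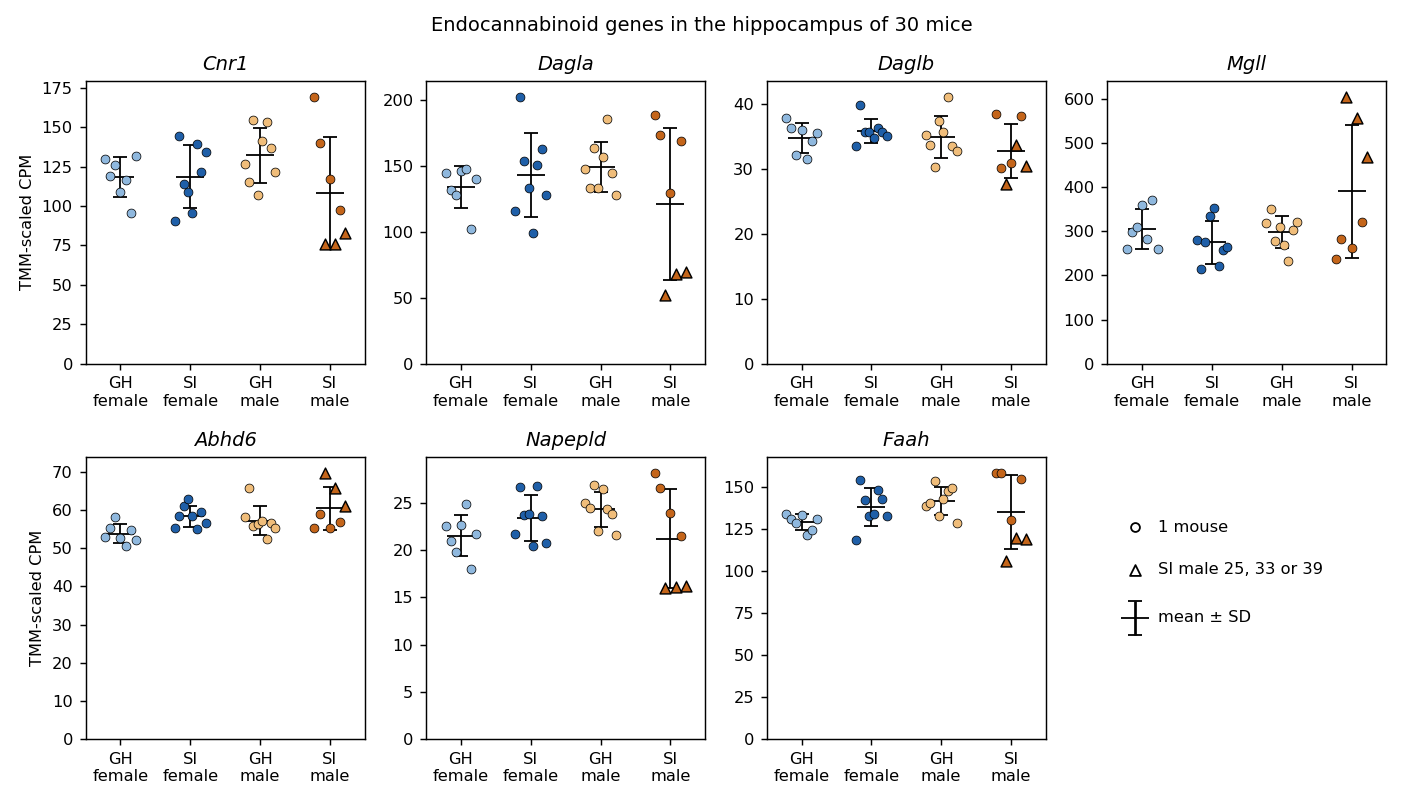
TMM-scaled CPM (y axis from 0) of the 7 genes in each of the 30 mice, by group on the x axis, with 1 point per mouse and lines for the mean ± SD; triangles mark SI males 25, 33 and 39. These 3 mice are the highest SI males for Mgll (468 to 604 CPM) and the lowest for Dagla (51.8 to 69.4 CPM), while the female groups overlap for each gene.

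Cnr1 encodes the CB1 receptor, the main target of both messengers in the brain. Its level was 90.8 to 144 CPM in SI females (median 118, n = 8) and 95.5 to 131 CPM in GH females (median 119, n = 7). SI females spread to both sides of the GH females, 3 of 8 being above the highest of them and 2 below the lowest. The fitted Log2FC was 0.01 with a standard error of 0.055 (adjusted p = 0.944, edgeR with Benjamini-Hochberg adjustment). Among males, Cnr1 was at 75.7 to 169 CPM under SI (median 97.4, n = 7) and at 107 to 155 CPM under GH (median 132, n = 8). Of the 7 SI males, 4 were below the lowest GH male and 1, animal 7, was above the highest; no member had male groups that did not overlap, where 0.0732% of all genes did. SI males 25, 33 and 39 lay between 75.7 and 83.2 CPM, and the other 4 SI males between 97.4 and 169 CPM with a mean 0.991-fold that of GH males. The fitted male Log2FC was -0.10 with a standard error of 0.0871 (adjusted p = 0.638 by the same edgeR test), and -0.04 without the 3 mice. The summed level of 6 markers of cholecystokinin interneurons (Cck, Slc17a8, Htr3a, Sncg, Vip and Calb2), the cells richest in CB1, was 330 to 477 CPM in SI and 268 to 420 CPM in GH females. In males it was 352 to 887 CPM under SI and 342 to 426 CPM under GH. The 6 markers did not move as 1, with 3 above 0 in Log2FC in females and 5 in males, and 0 called in either sex. In males they ran from -0.149 (Vip) to 0.495 (Calb2). In SI males 5 of 5 thalamus markers, 5 of 6 striatum markers and 6 of 6 markers of interneurons in general were also above 0. Of these 0 were called. The part of interneurons, cholecystokinin or other, or of thalamic or striatal tissue in these levels was not tested.

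Dagla makes the 2-AG that acts across hippocampal synapses. In females it was at 99.4 to 202 CPM under SI (median 142, n = 8) and at 102 to 147 CPM under GH (median 140, n = 7). SI females spread to both sides of the GH range, 4 of 8 being above the highest GH female and 1 below the lowest. The fitted Log2FC was 0.09 (standard error 0.0573) with a 95% interval of -0.03 to 0.21 (adjusted p = 0.424, edgeR with Benjamini-Hochberg adjustment). In males the range was 51.8 to 188 CPM under SI (median 129, n = 7) and 128 to 186 CPM under GH (median 146, n = 8). The SI males fell into a low set, animals 25, 33 and 39 at 51.8 to 69.4 CPM, and a set of 4 at 129 to 188 CPM, close to the GH range. The mean of the low set was 0.423-fold and that of the other 4 SI males 1.10-fold the GH mean. With surrogate variables in the model the Log2FC was 0.04 with a standard error of 0.0665 (adjusted p = 0.835, same edgeR test), and it was -0.30 without surrogate variables and 0.15 with neither the 3 mice nor surrogate variables. Its direction in males therefore depended on the model, and no model called it.

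Daglb is the related lipase with a larger role outside neurons, and it had the narrowest interval of the 7 in females. It ranged from 33.6 to 39.9 CPM in SI females (median 35.6, n = 8) and from 31.5 to 37.8 CPM in GH females (median 35.5, n = 7). Only SI female 45 was above the highest GH female. The fitted Log2FC was 0.04 (standard error 0.0377) with a 95% interval of -0.03 to 0.12 (adjusted p = 0.555, edgeR with Benjamini-Hochberg adjustment). In males Daglb was at 27.8 to 38.5 CPM under SI (median 30.9, n = 7) and 30.3 to 41.1 CPM under GH (median 34.5, n = 8), with 2 SI males below the lowest GH male. The male Log2FC was 0.01 with a standard error of 0.0687 (adjusted p = 0.970, same edgeR test). It was below 0 in 13 of 16 alternative models, down to -0.12, and no model called it.

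Mgll ends the action of 2-AG, mostly in presynaptic terminals and astrocytes. In SI females it was at 214 to 353 CPM (median 269, n = 8) and in GH females at 259 to 371 CPM (median 297, n = 7). The groups overlapped, with 3 of 8 SI females below the lowest GH female and 2 of 7 GH females above the highest SI female. Mgll was the only member with a Log2FC below 0 in females, -0.15 with a standard error of 0.0573 and a 95% interval of -0.27 to -0.03. Its unadjusted p was 0.0191 and its adjusted p 0.152 (edgeR with Benjamini-Hochberg adjustment), so it was not called. It was called with 4 surrogate variables (adjusted p = 0.0300), with 5 (adjusted p = 0.0493), without a filter on low counts (adjusted p = 0.0378) and without GH female 78 (adjusted p = 0.0159), each by the same edgeR test. The last 2 of these fits also had more surrogate variables than the main model, 5 without the filter and 4 without GH female 78, against 3. GH female 78 held the highest Mgll value of the GH females, and without it the Log2FC was -0.17. Of the 7 astrocyte markers, 7 had a Log2FC below 0 in SI females and 3 were called (Slc1a2, Slc1a3 and Aldh1l1, at -0.28, -0.24 and -0.27). In males 6 of the 7 were below 0 and 0 were called, and the part of astrocytes in the Mgll level was not tested.

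The male groups differed more in Mgll before adjustment for surrogate variables than afterwards. SI males ranged from 238 to 604 CPM (median 321, n = 7) and GH males from 233 to 350 CPM (median 307, n = 8). Animals 25, 33 and 39 were at 468 to 604 CPM, above each of the other 27 mice, and the other 4 SI males at 238 to 321 CPM lay within the GH range. The mean of the 3 was 1.82-fold and that of the other 4 was 0.925-fold the GH mean. The Log2FC was -0.07 with a standard error of 0.0658 (adjusted p = 0.668, edgeR with Benjamini-Hochberg adjustment) with surrogate variables and 0.39 without them (adjusted p = 0.177). Without the 3 mice it was -0.15 with 4 surrogate variables and -0.11 with 0, and neither was called (adjusted p = 0.687 and 0.994 by the same edgeR test).

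Abhd6 hydrolyses 2-AG on the postsynaptic side, near where it is made. SI females were at 55.0 to 62.9 CPM (median 58.4, n = 8) and GH females at 50.4 to 58.1 CPM (median 52.9, n = 7). Of the 7 genes this was the one with the least overlap in females, since 8 of 8 SI females were above the GH median, 5 of 8 were above the highest GH female and 5 of 7 GH females were below the lowest SI female. The groups still overlapped, whereas those of 0.317% of all genes did not. The fitted Log2FC was 0.13 (standard error 0.04) with a 95% interval of 0.04 to 0.21. Its unadjusted p was 0.00497 and its adjusted p was 0.0782 (edgeR with Benjamini-Hochberg adjustment), short of the threshold. DESeq2 with the same surrogate variables called it (adjusted p = 0.0404), as did edgeR with 4 or 5 surrogate variables (adjusted p = 0.0421 and 0.0368) and with each library's length and GC trend removed (adjusted p = 0.0402). Leaving out any of the 15 females gave a Log2FC of 0.11 to 0.14 and no call, with a lowest adjusted p of 0.0573 by the same edgeR test.

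In males no difference in Abhd6 was detected. Under SI the levels were 55.2 to 69.7 CPM (median 59.0, n = 7) and under GH 52.5 to 65.7 CPM (median 56.5, n = 8), where GH male 2 was the highest. Animals 25, 33 and 39 were at 61.1 to 69.7 CPM and the other 4 SI males at 55.2 to 59.0 CPM. The Log2FC was -0.03 with a standard error of 0.0474 (adjusted p = 0.800, edgeR with Benjamini-Hochberg adjustment), 0.08 without surrogate variables and -0.03 without the 3 mice.

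Because Mgll and Abhd6 act on the same messenger and had opposite signs in females, their balance was taken within each mouse as the log2 ratio of their CPM. It was 1.87 to 2.59 in SI females, with a mean of 2.22 ± 0.23 (SD, n = 8), and 2.30 to 2.77 in GH females, with a mean of 2.50 ± 0.20 (SD, n = 7). In males the mean was 2.61 ± 0.43 (SD, n = 7) in isolated mice, higher than the 2.38 ± 0.13 (SD, n = 8) of GH males, the opposite order to females. Without animals 25, 33 and 39, which were at 2.94 to 3.11, it was 2.28 ± 0.16 (SD, n = 4) under SI. The pair was picked for its opposite signs in these females, so the lower ratio in SI females restates those signs. It is not a separate result. These ratios carry no adjustment for surrogate variables and were not tested.

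Napepld, on the anandamide side, was the least expressed of the 7. SI females were at 20.4 to 26.7 CPM (median 23.6, n = 8) and GH females at 18.03 to 24.8 CPM (median 21.7, n = 7). The groups overlapped widely, with 2 SI females above the highest GH female and 2 GH females below the lowest SI female. The Log2FC was 0.12 (standard error 0.0504) with a 95% interval of 0.02 to 0.23 (unadjusted p = 0.0266, adjusted p = 0.179, edgeR with Benjamini-Hochberg adjustment). SI males were at 16.02 to 28.1 CPM (median 21.5, n = 7) and GH males at 21.5 to 26.8 CPM (median 24.4, n = 8). Animals 25, 33 and 39 were nearly equal at 16.02 to 16.24 CPM, below each GH male, and the other 4 SI males were at 21.5 to 28.1 CPM. The Log2FC in males was -0.04 with a standard error of 0.0563 (adjusted p = 0.763, same edgeR test), and 0.01 without the 3 mice.

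Faah breaks down anandamide in the postsynaptic neuron. SI females were at 118 to 154 CPM (median 138, n = 8) and GH females at 121 to 134 CPM (median 131, n = 7). GH females were tightly grouped, and 5 of 8 SI females were above the highest of them while SI female 41 was below the lowest. The Log2FC was 0.10 (standard error 0.0418) with a 95% interval of 0.02 to 0.19 (unadjusted p = 0.0231, adjusted p = 0.167, edgeR with Benjamini-Hochberg adjustment). SI males were at 106 to 158 CPM (median 130, n = 7) and GH males at 129 to 153 CPM (median 141, n = 8). In SI males 3 mice were above and 3 below the whole GH range, the low ones being animals 25, 33 and 39 at 106 to 119 CPM. The Log2FC in males was 0.04 with a standard error of 0.0543 (adjusted p = 0.766, same edgeR test).

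**Figure D2:**
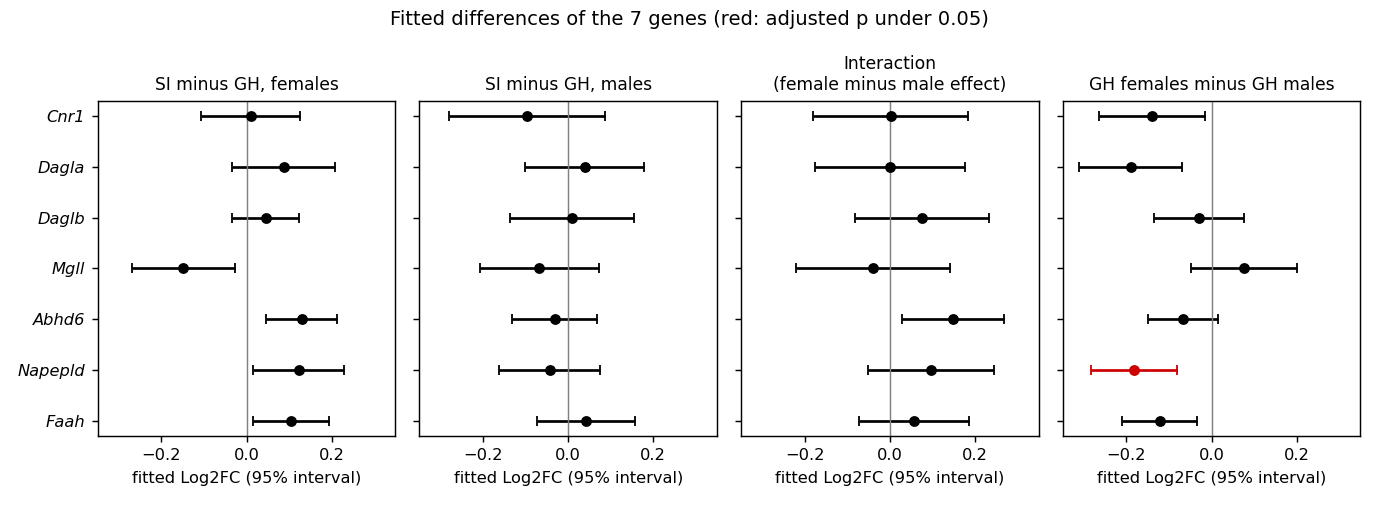
Fitted Log2FC (x axis, log2 scale) of the 7 genes with 95% intervals, in 4 panels for SI minus GH in females, SI minus GH in males, the difference between those effects, and GH females minus GH males. In females Mgll lies at -0.15 and Abhd6 at 0.13, the male intervals all include 0, and Napepld between GH females and GH males is the only point in red, the mark for an adjusted p under 0.05.

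The sexes were compared directly by an interaction term for housing and sex, fitted to the 30 mice together with 4 surrogate variables. Its values need not equal the difference between the fits within each sex, which had other surrogate variables. For Cnr1 those fits gave 0.01 in females and -0.10 in males, and the interaction was 0.002. The interaction called 0 of the 7 genes and 0 of all 16391 (0%), with 1 of the 7 and 7.49% of all genes (4.94% higher and 2.55% lower) at an unadjusted p under 0.05. The difference was above 0 for 6 of the 7 and for 55.1% of all genes. DESeq2 called 0 of the 7 and 8 of all genes. Abhd6 was that 1 gene, with a female effect higher than the male effect by 0.15 on the log2 scale and a standard error of 0.0581 (unadjusted p = 0.0168, adjusted p = 0.625, edgeR with Benjamini-Hochberg adjustment). For the others the difference between the effects was between -0.04 (Mgll) and 0.10 (Napepld), with standard errors of 0.0632 to 0.0887, so an effect of SI in females but not in males was not shown for any member.

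GH females and GH males were also compared in that fit, to see whether the members differed between the sexes without isolation. Napepld was lower in GH females, with a Log2FC of -0.18 and a standard error of 0.0494 (adjusted p = 0.0301, edgeR with Benjamini-Hochberg adjustment), a level 0.881-fold that of GH males. It was the only one of the 7 called, where 6.39% of all genes were. In CPM the groups overlapped, with 3 of 7 GH females below the lowest GH male and 3 of 8 GH males above the highest GH female. Dagla, Faah and Cnr1 also had values below 0, at -0.19, -0.12 and -0.14 with adjusted p-values of 0.0510, 0.0762 and 0.137 by the same edgeR test. Abhd6 and Daglb were at -0.07 and -0.03 and Mgll at 0.08, with adjusted p-values of 0.290, 0.762 and 0.450 by that edgeR test. In the same contrast, 5 of 5 excitatory neuron markers were called lower in GH females, at Log2FC of -0.33 to -0.16, and 7 of 7 astrocyte markers had values above 0, of which 3 were called. Their part in the Napepld level was not tested. The fit shares the GH females with the comparison of SI and GH females, in which Napepld was at 0.12. The call for Napepld was lost with 0 surrogate variables (adjusted p = 0.672), without SI males 25, 33 and 39 (adjusted p = 0.189) and with only the GH mice in the fit (adjusted p = 0.212), at Log2FC of -0.17, -0.15 and -0.14. It was also lost when GH female 47, 48, 78 or 79 (adjusted p = 0.0603, 0.0719, 0.0959 and 0.0513) or GH male 1, 3 or 23 (adjusted p = 0.0788, 0.128 and 0.0522) was left out of the edgeR fit, and the other 8 fits without 1 GH mouse kept it. Dagla was called without GH female 54 (adjusted p = 0.0455) or GH male 15 or 24 (adjusted p = 0.0213 and 0.0415), and Faah without GH male 15 or 24 (adjusted p = 0.0214 and 0.0288), by the same edgeR test.

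**Figure D3:**
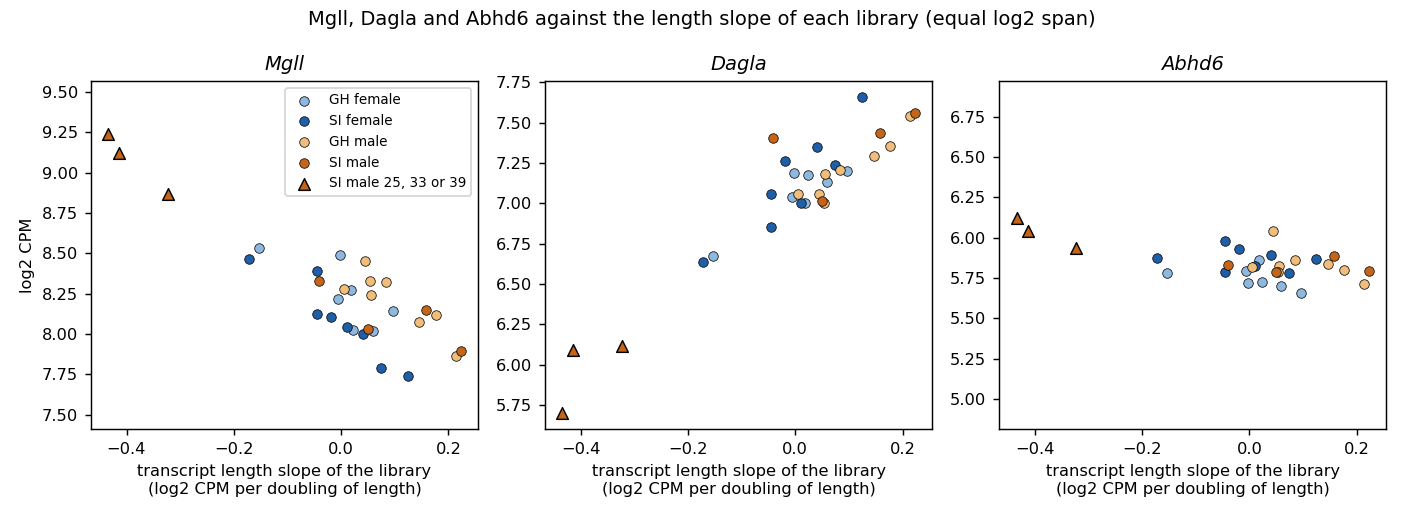
Log2 CPM of Mgll, Dagla and Abhd6 (y axes of equal span) against the transcript length slope of the library (x axis, log2 CPM per doubling of transcript length) for the 30 mice, coloured by group, with triangles for SI males 25, 33 and 39. Mgll is highest and Dagla lowest in the 3 libraries with slopes of -0.43 to -0.32, and the same tilt is visible in the other mice.

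The members varied together from mouse to mouse within groups. On log2 CPM with each group's mean subtracted, Pearson's r over the 30 mice was 0.83 between Cnr1 and Dagla, 0.89 between Dagla and Napepld and 0.89 between Dagla and Faah. Mgll ran the other way, with r of -0.88 to Cnr1, -0.89 to Dagla and -0.83 to Napepld, and Abhd6 went with Mgll (r = 0.74). Without SI males 25, 33 and 39 (n = 27) the same pairs were at 0.70, 0.73, 0.74, -0.79, -0.68, -0.60 and 0.52. For Daglb r was at most 0.53 over the 30 mice, to Dagla, and 0.45 for that pair without the 3 mice, and in the 15 females it reached 0.74, to Faah. For Abhd6 r without the 3 mice was between -0.22 and 0.09 to the members other than Mgll. All of these r values come from the same libraries, which also differ in the length slope. Cnr1 and Dagla have transcripts of 5807 and 5634 bases, Mgll 3991, Napepld 3954, Faah 3827, Daglb 3214 and Abhd6 2018. Half-way in the length ranking of all tested genes lies 2992 bases. Mgll, close in length to Napepld and Faah, had a mean 1.82-fold that of GH males in SI males 25, 33 and 39. Napepld and Faah were at 0.663-fold and 0.810-fold the GH male mean in those mice. The r values are given as a description, and the part of the length slope in them was not tested.

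The 3 genes whose pattern was most like each member over the 30 mice were picked for their high r, so their r is a description only. For Cnr1 they were Neto1, Dock4 and Zdhhc23 (r of 0.97), for Dagla Cnnm1, Mef2d and Pcdh1 (r of 0.98), for Napepld Ablim1, Lmln and Atf6 (r of 0.94), and for Faah BC018242, Adra1d and Slc17a7, the vesicular glutamate transporter of excitatory neurons (r of 0.94 to 0.95). For Mgll they included the ribosomal protein genes Rpsa and Rplp0 (r of 0.97), and these remained at 0.93 without SI males 25, 33 and 39. For Abhd6 they were Banp, Opa3 and Tesc (r of 0.82 to 0.84, falling to 0.69 to 0.75 without the 3 mice) and for Daglb 1810055G02Rik, Por and Slc45a1 (r of 0.80 to 0.81).

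**Figure D4:**
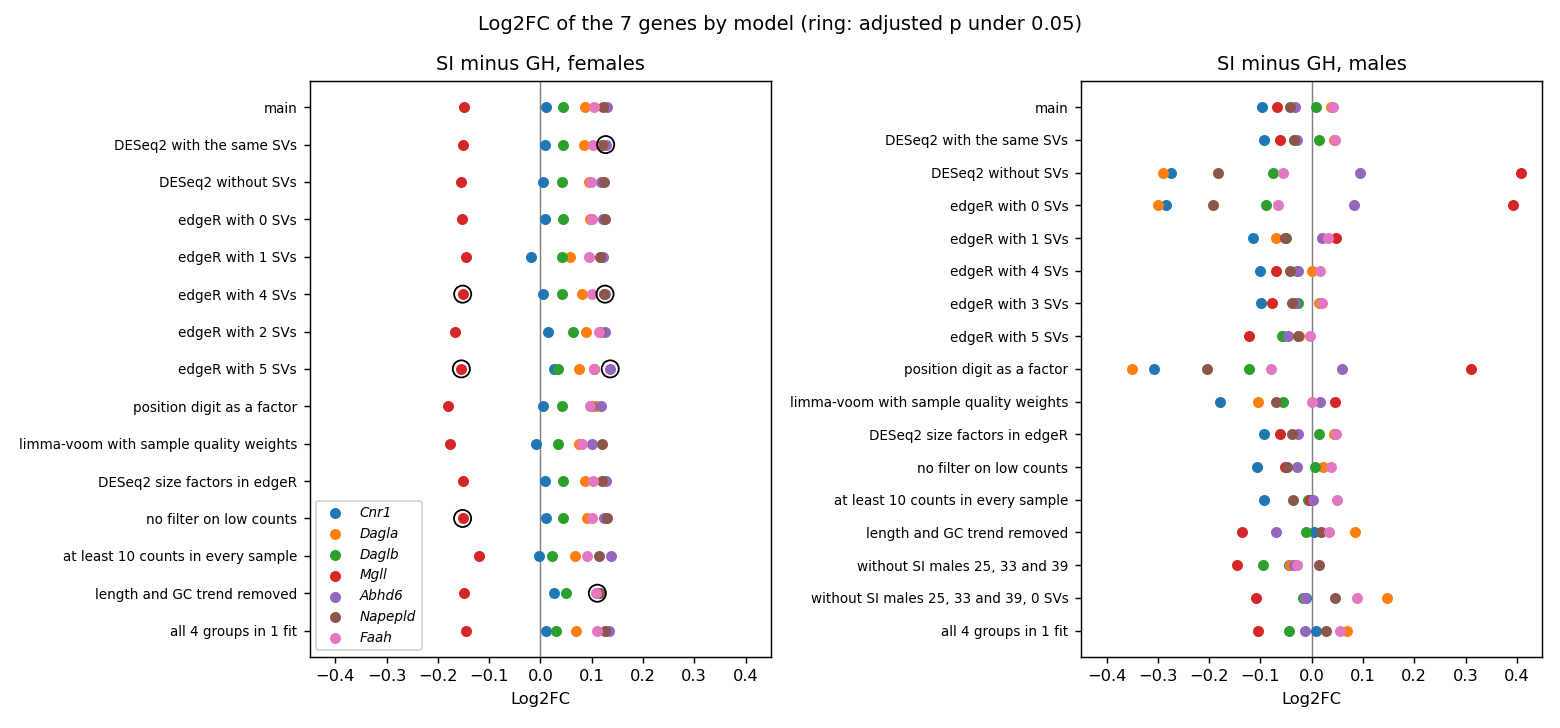
Fitted Log2FC (x axis, log2 scale) of the 7 genes for SI minus GH under the main model and each alternative (y axis; SV stands for surrogate variable), females on the left and males on the right, with a ring around values with an adjusted p under 0.05. In females Mgll stays at -0.18 to -0.12 and Abhd6 at 0.10 to 0.14, whereas in males Mgll ranges from -0.15 to 0.41 and Dagla from -0.35 to 0.15.

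Around the 7 genes, 45 further genes of endocannabinoid signalling were followed, covering other receptors, CB1 partners and G proteins, the receptors and enzymes upstream of 2-AG, other routes to anandamide, further hydrolases and oxidases, and carriers. Of these, 40 were matched to a row of the table and tested, and Gpr18, Gpr119, Trpv1, Plaat5 and Alox15 had no match. In SI females 7 of the 40 were DEGs (17.5%, against 3.89% of all genes), 6 lower and 1 higher, and 14 had an unadjusted p under 0.05 (35%, against 20.2% of all genes). In the same mice 7 of 7 astrocyte markers (3 called, median Log2FC -0.21) and 6 of 6 oligodendrocyte markers (0 called, median -0.08) were below 0. So were 6 of 6 microglia markers (0 called, median -0.07). Markers of excitatory neurons (5 of 5), dentate granule cells (5 of 5, 1 called) and CA3 (4 of 4, 1 called) were above 0. The same held for endothelium (5 of 5, 1 called), choroid plexus (7 of 7) and striatum (6 of 6). Other marker sets went both ways. The part of any cell type or tissue in the calls among the 40 genes was not tested. The list as a whole was not shifted, with 19 genes above 0 and 21 below and a median Log2FC of -0.01. It was drawn up with earlier results of these data known, so its share of DEGs is a description only.

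The DEGs of this list were spread over the roles, with 2 among 8 CB1 partners and G proteins, 1 among 10 genes upstream of 2-AG, 2 among 9 of anandamide synthesis, 1 among 5 hydrolases and oxidases and 1 among 4 carriers, and 0 among 4 receptors. Naaa, a lysosomal hydrolase of anandamide and related amides, had the lowest p, at 41.8 to 50.1 CPM in SI females (median 46.9) and 49.03 to 57.2 CPM in GH females (median 52.6). The ranges overlapped between 49.03 and 50.06 CPM, with a Log2FC of -0.21 and a standard error of 0.0381 (adjusted p = 0.00945, edgeR with Benjamini-Hochberg adjustment). Gnai2, a G protein subunit through which CB1 can signal, was at 233 to 271 CPM in SI and 276 to 308 CPM in GH females. It was the only list gene whose female groups did not overlap (1 of 40, where 0.317% of all genes did not), with a Log2FC of -0.17 and a standard error of 0.0342 (adjusted p = 0.0127, same edgeR test). Abhd4 and Plaat3, enzymes of other routes to anandamide and its relatives, fell by 0.27 and 0.23 on the log2 scale (adjusted p = 0.0140 and 0.0222, same edgeR test). Abhd4 was at 62.5 to 88.8 CPM in SI and 81.4 to 104 CPM in GH females.

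Camk2a, a kinase that inhibits the product of Dagla, fell by 0.24 on the log2 scale (adjusted p = 0.0197, edgeR with Benjamini-Hochberg adjustment), with 4271 to 5690 CPM in SI and 4758 to 6973 CPM in GH females. Scp2, a lipid carrier, fell by 0.14 (adjusted p = 0.0310), and Arrb2, which uncouples CB1 from its G proteins, rose by 0.16 (adjusted p = 0.0414, both by the same edgeR test). Between GH females and GH males, 6 of the 40 list genes were called (15%, against 6.39% of all genes). Naaa, Abhd4, Plaat3, Scp2 and Arrb2 were among them, at Log2FC of 0.19, 0.35, 0.33, 0.20 and -0.22. Each has the opposite sign to its value in SI against GH females, and both comparisons use the same GH females. What sets the GH females apart for these genes was not tested. Naaa and Gnai2 were each called in 14 of the 15 fits that left out 1 female, Abhd4 in 12, Plaat3 in 10, Camk2a in 8 and Scp2 and Arrb2 in 7. The number called went down to 0 without SI female 68, to 2 without SI female 45 or 63, to 3 without GH female 54 and to 4 without SI female 49 or 73 or GH female 48, and it was at most 10. With 0 surrogate variables edgeR called 0 of the 40 and DESeq2 called 5. The other cannabinoid receptor gene, Cnr2, was barely detected, with 0.156 to 0.425 CPM in SI and 0.251 to 0.394 CPM in GH females.

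In males 0 of the 40 list genes were called by the same edgeR test (0% of all genes), and 6 passed an unadjusted p of 0.05, a share of 15% near the 13.0% of all genes. With surrogate variables DESeq2 called 0, and without them 1. The 6 with the smallest p were Homer1 and Camk2a, at Log2FC of -0.23 and -0.25, and Arrb2, Plcb4, Fabp3 and Ptpn22, at 0.19, 0.32, 0.17 and 0.69. Ptpn22 was scarcely expressed, with 0.181 to 0.977 CPM under SI and 0.141 to 0.432 CPM under GH. Camk2a was at 2479 to 5572 CPM in SI and 4599 to 5701 CPM in GH males. Without SI male 27 the number called was 8, in a fit that called 2413 of all 15790 genes, Cnr1 not among them, and in each of the other 14 fits without 1 male it was 0. The interaction of sex and housing called 0 of the 40, with 3 at an unadjusted p under 0.05 (Homer1, Gnao1 and Gnaq), a share of 7.5% against 7.49% of all genes, and DESeq2 also called 0.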

How the data were processed

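Hippocampal RNA of 30 mice was sequenced as paired-end, poly(A)-selected libraries. After trimming with Trimmomatic 0.39 and quantification with Salmon 1.8.0 (the submitters' processing notes name GRCm39), the authors deposited a table of raw counts, held as whole numbers and not normalized, in which each gene has at least 100 counts over all mice. Strand handling and the annotation release are not given in the sources used here. Columns were matched to mice by name.

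Within each sex, counts were tested with edgeR 4.0.16 (R 4.3.3): filterByExpr (minimum count 10, minimum total 15), TMM, surrogate variables from svaseq (sva 3.50.0, their number set with 20 permutations), glmQLFit and glmQLFTest, and Benjamini-Hochberg adjustment over all genes tested. Standard errors are the Log2FC divided by the root of the F statistic. CPM values are scaled by TMM and carry no adjustment for surrogate variables, so they need not have the ratio of the Log2FC, and log2 CPM used a prior count of 2. Symbols were found for 16439 genes (94.1%), and lengths for 15964 (91.3%), as the longest GENCODE vM1 transcript. The members, gene lists and tests were chosen with earlier results of these data known. Named genes are the 7 members, list genes called in a sex (where none was, the 6 with the smallest p) and the 3 nearest genes of each member, of which 1 is not reported here. Replicate pairs differed by more than sampling noise (chi-square per degree of freedom at least 9.29). The steps were tested on simulated counts. These held no hidden variation between mice, so they cannot check the adjustment for surrogate variables.

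Alternatives were DESeq2 1.42.0 with and without surrogate variables, 0 to 5 surrogate variables, limma-voom (limma 3.58.1) with sample quality weights and no surrogate variables, the position digit of the labels as a factor in place of surrogate variables, DESeq2's size factors, other filters, removal of length and GC trends by lowess, all groups in 1 fit, and leaving out mice. The number of surrogate variables was estimated anew with another filter or set of mice. Counts in a library set the precision less than the spread between mice.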

Additional observations from a re-analysis of the deposited data

Results flagged for a closer look

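Among the 28 sets of values tested (7 genes in 4 groups), 3 held a mouse far from the rest of its group by Dixon's test, and chance alone gives about 1 in 20. Dagla was lowest in GH female 78, at 102 CPM. Daglb was highest in SI female 45, at 39.9 CPM. Abhd6 was highest in GH male 2, at 65.7 CPM.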

How the results depend on the processing

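In females, Dagla, Daglb, Mgll, Abhd6, Napepld and Faah kept their direction under each of the 14 alternative models. Cnr1 turned to -0.019 with 1 surrogate variable, -0.0097 with limma-voom and -0.0026 with at least 10 counts required in every sample. The number of the 7 genes called in females was 1 with DESeq2 and the same surrogate variables, 2 with 4 surrogate variables, 2 with 5, 1 without a filter (a fit that also had 5 surrogate variables) and 1 with length and GC trends removed. List genes called in females numbered 0 with 0 surrogate variables and 0 with the position digit in place of surrogate variables, and in males 1 with DESeq2 without surrogate variables.

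Among males, 0 members were called under any of the 16 alternatives. Log2FC turned with DESeq2 without surrogate variables for Dagla, Daglb, Mgll, Abhd6 and Faah (-0.29, -0.076, 0.41, 0.093 and -0.055), with 0 surrogate variables in edgeR (-0.30, -0.088, 0.39, 0.083 and -0.066) and with the position digit (-0.35, -0.12, 0.31, 0.060 and -0.079). With 1 surrogate variable Dagla, Daglb, Mgll and Abhd6 were at -0.070, -0.051, 0.048 and 0.019, and with limma-voom at -0.11, -0.057, 0.045 and 0.016, with Faah at -1.3e-05. With 5 surrogate variables Dagla, Daglb and Faah were at -0.025, -0.058 and -0.0026, and Daglb was at -0.027 with 3 and -0.028 with 4. With at least 10 counts in every sample Dagla, Daglb and Abhd6 were at -0.0011, -0.0069 and 0.0033. With length and GC trends removed Cnr1, Daglb and Napepld were at 0.0044, -0.012 and 0.018, and with all groups in 1 fit at 0.0091, -0.044 and 0.028. Without SI males 25, 33 and 39 Dagla, Daglb, Napepld and Faah were at -0.043, -0.094, 0.015 and -0.029, and with 0 surrogate variables as well, a model chosen after seeing the data, Daglb and Napepld were at -0.017 and 0.045. The cause of these changes was not tested.

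For the interaction, Cnr1 turned to -0.012 with DESeq2, -0.014 with its size factors, -0.0052 without a filter and -0.019 with length and GC trends removed, and Dagla to -0.013 with DESeq2 and -0.013 with its size factors. Between GH females and GH males, Daglb was at 0.028 without the 3 SI males, and the members called numbered 0 with 0 surrogate variables, 3 with DESeq2, 2 with length and GC trends removed, 0 without the 3 SI males and 0 with only GH mice in the fit (the last chosen after seeing the data).

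Leaving out 1 mouse at a time gave 0 to 1 members called in females, 0 in males and 0 to 3 between GH females and GH males, and 0 to 10 list genes called in females and 0 to 8 in males. Log2FC in females was -0.022 to 0.039 for Cnr1 and -0.00028 to 0.076 for Daglb. In males it was -0.23 to 0.14 for Dagla, -0.11 to 0.046 for Daglb, -0.16 to 0.12 for Mgll, -0.054 to 0.047 for Abhd6, -0.11 to 0.0054 for Napepld and -0.018 to 0.073 for Faah. Between GH females and GH males it was -0.061 to 0.016 for Daglb. No paired analysis was possible because the groups share no replicate numbers.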
